A study of Nicotiana tabacum with 3 samples.

Results

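The genes of the mitochondrial genome were followed in RNA-seq libraries of WT 2-celled proembryos of tobacco (Nicotiana tabacum, strain SR1), isolated 4 days after pollination. The 3 libraries, called library 1, 2 and 3, are replicates of 1 group, so no treatment or genotype was compared. The members are the 145 genes that the deposited tables place on the mitochondrial genome, of 49454 genes listed in at least 1 library. Values are FPKM, which counts the fragments of a gene relative to its transcript length and to all mapped reads of its library, and a gene that a table does not list was taken as 0 FPKM. The libraries were made from polyA RNA of isolated proembryos, amplified with a kit for very small amounts of RNA, and whether the 3 pools came from separate plants is not given in the sources used here. How many reads each library holds is not known. From genes with very low values, the depth of library 2 was estimated at 1.13 times and that of library 3 at 0.909 times that of library 1.

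Plant mitochondria keep a small set of genes of their own. These encode some subunits of the respiratory chain complexes and of ATP synthase, proteins that attach haem to cytochrome c, part of the mitochondrial ribosome with its rRNAs, and tRNAs, while most mitochondrial proteins come from nuclear genes. The genome also holds many open reading frames (orfs) of unknown function, and repeats that carry whole genes in more than 1 place. Plant mitochondrial mRNAs do not in general carry stable poly(A) tails, and a tail there usually marks an RNA for decay. The levels below are therefore those of mitochondrial RNA captured in a polyA preparation, and the share that was captured was not measured.

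The labelled tissue was looked at through the few marker names that the gene table resolves. CYS (LOC107823208), listed under the name of a suspensor cystatin, averaged 37.6 ± 19.9 FPKM (SD, n = 3) and the suspensor protease CP14 (LOC107815488) 4.67 ± 4.17 FPKM. Of the seed coat names, CHI matched 2 listed genes, LOC107801443 at 232 ± 86.3 FPKM and LOC107759005 at 0.314 ± 0.216 FPKM, F3H and DFR matched genes that were not listed, and CHS and ANR matched none. Of the green tissue names, the plastid genes rbcL and psbA averaged 7.67 ± 4.29 and 0.210 ± 0.301 FPKM, and RBCS, CAB and LHCB matched none. These names are too few to test the purity of the proembryos.

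All named protein genes in the RefSeq annotation of the tobacco mitochondrial genome were listed in at least 1 library. That annotation holds 183 genes, of which 145 were listed and 38 were not. The unlisted ones were 23 tRNA genes (1 of them a pseudogene), the 5S rRNA gene rrn5 and 14 orfs. Of the 145 listed genes, 41 carry the name of a known gene, counting orf25 (atp4), orfB (atp8) and orfX (mttB) and every repeat copy, and 104 are unnamed orfs. The named genes were nearly always seen, with 40 of 41 listed in all 3 libraries, and rps14 was the exception. Of the unnamed orfs, 53 of 104 were listed in all 3. Together this was 93 of 145 members, or 64.1%, against 82.8% of all genes in the tables. The 21 members listed in a single library had between 0.151 and 1.76 FPKM there, and 14 of these were listed in library 3 alone, 5 in library 2 alone and 2 in library 1 alone. Library 3 also listed the most genes of all, 46255 against 44553 in library 1 and 44302 in library 2. The shares of all genes listed in a single library were not computed, so these counts are not read as a trait of the members.

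The mitochondrial genes held a small part of each library, and 1 gene, atp1, held much of that part. Their summed FPKM was 1222, 1107 and 1700 in libraries 1, 2 and 3, which was 0.146%, 0.138% and 0.224% of the library sums (mean 0.169% ± 0.0474, SD, n = 3). In such pools, fewer mitochondria or cells, less RNA in each and a smaller share captured in the polyA preparation cannot be told apart. The 5 highest members held 73.3%, 71.7% and 66.4% of these sums. Most members were low, with a median of the mean levels of 0.662 FPKM, against 2.82 FPKM over all genes, and 37 members lay above that median of all genes. A mean of at least 1 FPKM was reached by 58 members (40.0%, against 65.9% of all genes) and a mean of at least 10 FPKM by 19. The lowest of these 19, orf133 with a mean of 10.4 FPKM, ranked 12577 of all 49454 genes. The 79 listed genes of the plastid genome summed to 418, 453 and 575 FPKM in libraries 1, 2 and 3.

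ATP synthase genes formed the highest protein-coding class because of atp1, which encodes the alpha subunit of the catalytic F1 head. The gene atp1 (gene74215) was at 633, 581 and 464 FPKM in libraries 1, 2 and 3 and averaged 559 ± 86.6 FPKM (SD, n = 3). As a single entry it was the highest of the 145 members in every library, each repeat copy being counted by itself, and it ranked 138 of all 49454 genes. It held 51.8% and 52.5% of the mitochondrial sum in libraries 1 and 2 and 27.3% in library 3. The gene for ATP8, orfB, followed far below at 4.94, 9.26 and 24.3 FPKM. The membrane subunit gene orf25 (ATP4) was at 4.85, 4.01 and 6.08 FPKM and atp6, which encodes the subunit that carries the proton path, at 4.51, 1.67 and 4.85 FPKM. The gene for the rotor ring subunit, atp9, was at 6.81, 1.46 and 1.83 FPKM, high in library 1 and low in the others. The ranges of these last 3 genes overlapped, and their means lay between 3.37 and 4.98 FPKM. In every library atp1 exceeded atp9 by at least 92.9-fold.

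Cytochrome c oxidase (complex IV) showed a wide and stable order among the 3 catalytic core subunits that mitochondria encode. The gene cox3 was at 40.0, 47.4 and 115 FPKM, cox2 at 5.69, 3.82 and 6.87 FPKM, and cox1, which encodes the haem-bearing core subunit, at 0.204, 0.664 and 2.09 FPKM in libraries 1, 2 and 3. The 3 genes did not overlap, since the lowest cox3 value was above every cox2 value and the lowest cox2 value was above every cox1 value. The ratio of cox3 to cox1 lay between 55.1 and 196. The single complex III gene, cob (apocytochrome b), was among the lowest named genes at 0.295, 0.0518 and 0.804 FPKM, with the highest library 15.5 times the lowest. That spread rests on the value in library 2, which lies below 0.151 FPKM, the lowest value of any member listed in a single library.

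Complex I (NADH dehydrogenase) genes ranged over a 58.8-fold span of mean levels, each copy of nad3 being counted by itself. All 9 gene names of the list, with nad3 present at 2 places, were listed in every library. The copy of nad3 that lies beside rps12 (gene74121) was the highest at 22.2, 20.9 and 35.3 FPKM, and its second copy (gene74223, from 287895 to 288251 of the mitochondrial genome) was at 11.7, 16.0 and 25.6 FPKM. The gene nad4 was at 7.51, 8.81 and 17.9 FPKM and nad2 at 3.77, 4.83 and 9.28 FPKM. These encode subunits of the membrane arm. Lower members in the plot of named genes were nad7 at 0.967, 1.87 and 6.45 FPKM, nad1 at 1.85, 2.00 and 3.003 FPKM and nad5 at 0.670, 1.12 and 1.66 FPKM. The mRNAs of nad1, nad2 and nad5 are known in flowering plants to be joined from separately transcribed pieces. Below them, with means under 1 FPKM, were nad4L at 1.00, 0.224 and 0.822 FPKM, nad9 at 0.778, 0.414 and 0.609 FPKM and nad6 at 0.379, 0.0554 and 0.901 FPKM. The ranges of nad4L, nad9 and nad6 overlapped. The single complex II gene name, sdh3, encodes a membrane anchor of succinate dehydrogenase and was present in 3 copies that together had 9.21, 7.68 and 13.6 FPKM.

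**Figure D1:**
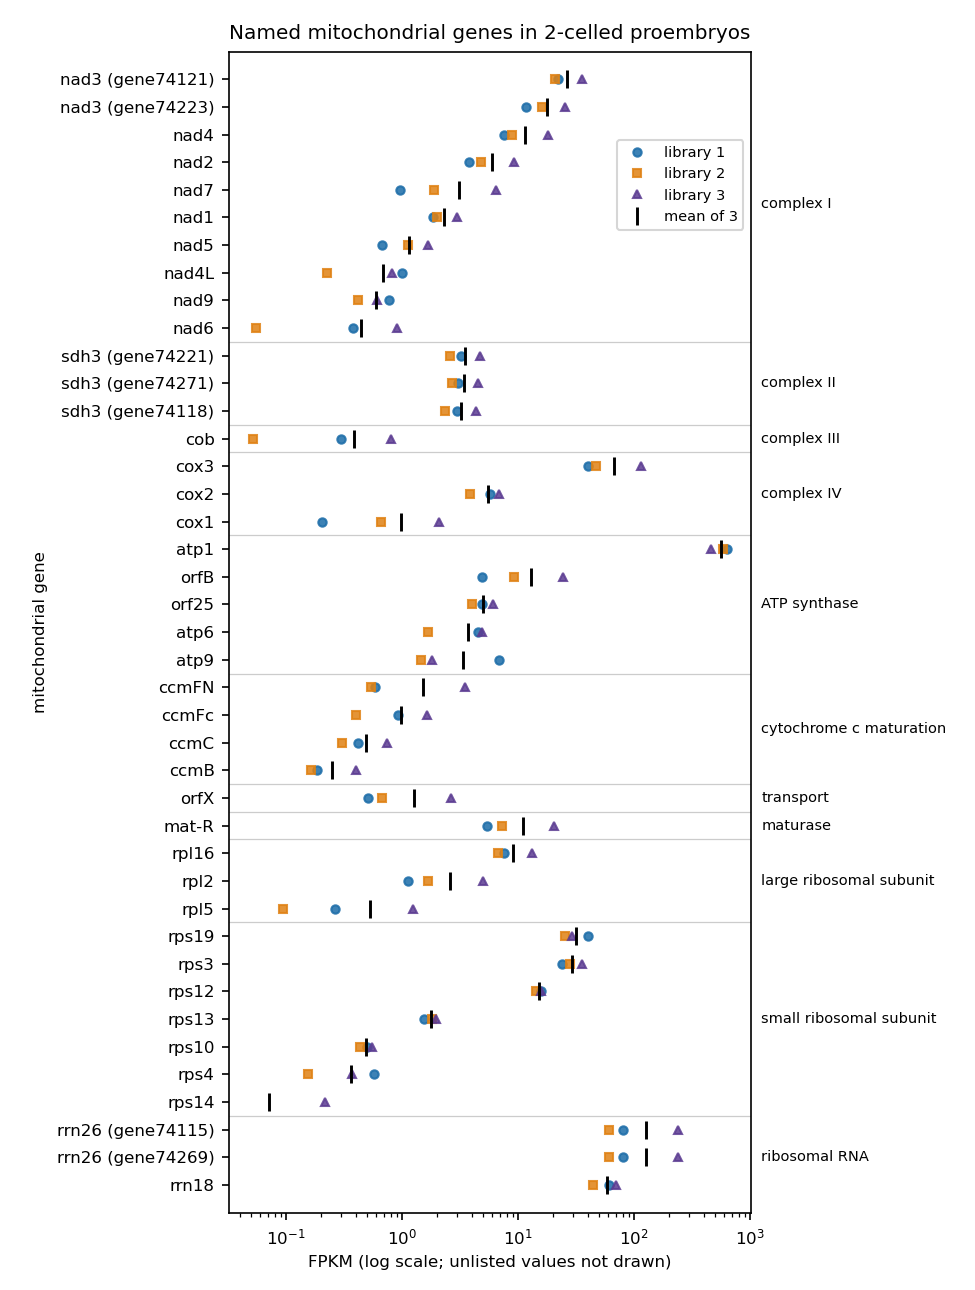
FPKM on a log axis of the 41 named mitochondrial genes (rows, grouped by class) in libraries 1, 2 and 3 (points), with the mean of the 3 as a black bar and unlisted values not drawn. The gene atp1 lies at 464 to 633 FPKM, apart from all others, while subunits of the same complex spread widely, as cox3 at 40.0 to 115 FPKM against cox1 at 0.204 to 2.09 FPKM.

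The genes for cytochrome c maturation, for protein transport and for splicing were all listed in every library. The 4 maturation genes encode parts of the machinery that joins haem to cytochrome c, and their summed level was 2.10, 1.41 and 6.25 FPKM in libraries 1, 2 and 3. Their means were 1.53 ± 1.67 FPKM for ccmFN, 0.987 ± 0.625 FPKM for ccmFc, 0.487 ± 0.227 FPKM for ccmC and 0.251 ± 0.132 FPKM for ccmB, and each was highest in library 3. The transporter gene orfX, a tatC homolog also called mttB, was at 0.511, 0.666 and 2.63 FPKM. The gene mat-R (from 4036 to 6012), which encodes a maturase that takes part in intron splicing, stood well above these at 5.37, 7.26 and 20.4 FPKM.

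Ribosomal protein genes ranged from among the highest to the lowest named genes. The genes rps19 (39.8, 25.4 and 29.4 FPKM), rps3 (23.9, 28.0 and 35.8 FPKM) and rps12 (15.7, 14.2 and 15.9 FPKM), all of the small ribosomal subunit, were high in every library. The order of rps19 and rps3 was not stable, since rps19 was higher in library 1 and lower in libraries 2 and 3. The gene rps12 was the steadiest member of all those listed in 3 libraries, with its highest value 1.12 times its lowest. Of the large subunit, rpl16 was at 7.51, 6.72 and 13.1 FPKM and rpl2 at 1.13, 1.69 and 5.02 FPKM. The remaining genes were low, with means of 1.77 ± 0.217 FPKM for rps13, 0.532 ± 0.615 FPKM for rpl5, 0.493 ± 0.0577 FPKM for rps10 and 0.365 ± 0.208 FPKM for rps4. The gene rps14 was listed in library 3 alone, at 0.216 FPKM.

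The ribosomal RNA gene rrn26 was the next highest after atp1. It encodes the 26S rRNA and is present in 2 copies that together had 162, 121 and 481 FPKM in libraries 1, 2 and 3. In library 3 this sum was above the level of atp1. The gene rrn18, for the 18S rRNA, had 61.2, 44.6 and 69.4 FPKM and was below cox3 on average. Library 3 thus stood apart for rrn26 and much less for rrn18, and the ratio of 1 rrn26 copy to rrn18 was 1.32, 1.35 and 3.46. All rRNA genes together held 18.2%, 14.9% and 32.3% of the mitochondrial sum.

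Unnamed orfs were lower than named genes, with some exceptions. Their median of mean levels was 0.552 FPKM, against 3.37 FPKM for named genes. Within libraries 1, 2 and 3 the medians were 0.352, 0.208 and 0.858 FPKM for orfs, against 3.06, 2.00 and 4.70 FPKM for named genes. Orfs made up 11.5%, 12.7% and 16.3% of the mitochondrial sum, and 29 of the 104 reached a mean of 1 FPKM. Library 3 weighed on this ratio: the median of named genes was 6.10 times that of orfs over all libraries and 9.99 times without library 3. The number in an orf's name is its length in codons, as the loci show for 26 of the 26 orfs with a locus of their own.

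The 5 highest orfs lay next to or inside named genes, or in repeats. How many of all orfs lie in such places was not counted, so this is not read as a trait of the highest ones. The highest was orf125e, which overlaps cox3, at 19.2, 19.0 and 49.8 FPKM in libraries 1, 2 and 3, and cox3 exceeded it by a steady 2.08 to 2.50 times. Next came orf109c at 8.01, 13.3 and 20.4 FPKM. It lies within the span of nad7, a gene with introns (locus from 375325 to 380615), yet it was 3.17 to 8.28 times as high as nad7, while orf125f within the same span was at 0.558, 0.600 and 2.13 FPKM. The orf beside atp1, orf274, was at 7.78, 11.0 and 16.0 FPKM, against the far higher atp1, which exceeded it 29.0 to 81.3 times. The remaining pair were both copies of orf173, at 9.31, 10.5 and 13.9 FPKM for the first and 9.37, 10.5 and 14.0 FPKM for the second.

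Of the 10 other orfs that overlap a named gene, 6 had means above the orf median of 0.552 FPKM and 1 had a mean above the named gene median of 3.37 FPKM. In the span of nad4, orf122, orf104, orf134 and orf171 had means of 2.14, 1.25, 0.961 and 0.0905 FPKM, and orf103a, which overlaps nad5, had 1.04 FPKM. The orfs that overlap rrn26, orf138b and orf138c (gene74268), each had a mean of 0.0918 FPKM, although rrn26 itself was among the highest genes. The one that overlaps rrn18, orf108, reached 12.1, 5.41 and 11.6 FPKM, which was 0.121 to 0.198 times the level of rrn18. The orf that overlaps rps14 and rpl5, orf121a, had 0.362, 0.319 and 0.397 FPKM. Since the tables do not show how reads in an overlap were assigned, the levels of overlapping genes are not independent of each other.

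Along the genome 10 of the 19 members with a mean of at least 10 FPKM lay in 3 stretches of neighbours, and the other 9, among them both copies of rrn26 and rrn18, lay elsewhere. The stretches were picked from these same levels, so the count is a description and tests nothing. The tables give 103 members the same locus, from 6674 to 278121, which nad1, a gene split over distant pieces, also carries, so the order was taken from the gene identifiers and not from coordinates. The identifiers follow the order of starts in the RefSeq annotation for all 145 members, and the 37 members with a locus of their own have the same positions there. The longest runs of neighbours with means of at least 1 FPKM held 6 members, and there were 2 such runs. One ran from orf125d over orfB, cox3, orf125e and orf274 to atp1, with means from 6.51 to 559 FPKM, and held 57.8%, 60.8% and 40.0% of the mitochondrial sum in libraries 1, 2 and 3. The second ran from nad2 over sdh3, orf173, orf265a and nad3 to rps12, with means from 3.21 to 26.2 FPKM.

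A shorter high stretch held rps19, rps3, rpl16 and cox2, neighbours whose levels stepped down in this order in library 1. In libraries 2 and 3 rps3 was above rps19, and rpl16 and cox2 again followed in this order. By contrast, cob, rps14, orf121a and rpl5 lie side by side and together had 0.924, 0.465 and 2.65 FPKM. Neighbours could also differ sharply, as orf25 exceeded the adjacent nad4L by 4.83, 17.9 and 7.39 times. The longest run of members with means under 1 FPKM held 17 orfs, from orf116 to orf144, with no value above 1.29 FPKM in any library. Over all 144 neighbouring pairs the median absolute difference in mean log2(FPKM + 1) was 0.63, against 0.82 over all 10440 pairs of members. Neighbours can share transcripts and reads, and this is given as a description without a test.

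**Figure D2:**
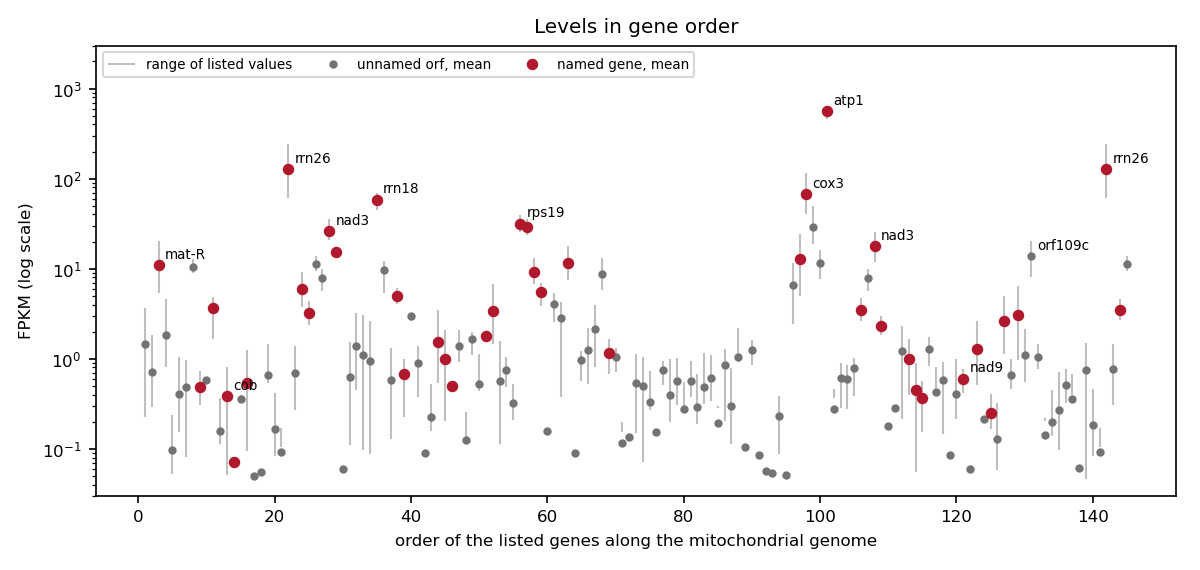
Mean FPKM (log axis) of the 145 listed mitochondrial genes in their order along the genome, with named genes in red, unnamed orfs in grey and the range of listed values as grey lines. The 6 neighbours from orf125d to atp1 have means from 6.51 to 559 FPKM, rrn18 and rrn26 lie elsewhere, and the 2 copies of rrn26 sit at the same height.

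Genes at more than 1 place had nearly equal values in some cases and not in others. Every pair of members with a shared name was compared (8 names, 10 pairs), together with 4 pairs of orfs that have other names but equal codon numbers and lie at like places beside repeated genes. These 4 were chosen after the values had been seen, and no sequence was compared, so it is not known which pairs are true copies. A like pair, orf119a and orf119c, beside orf120 and orf120b (gene74266), was not among them. Its members were at 0.532, 0 and 1.45 FPKM and at 0.665, 0.0467 and 1.51 FPKM in libraries 1, 2 and 3. They differed by more than 20% in library 1. In 9 of the 14 pairs the values differed by at most 20% in every library that listed both members, and in 3 of these by at most 1%. The 9 include all 4 pairs chosen after the values had been seen and the 3 pairs among the sdh3 copies, so their number carries little weight. Of the 8 shared names, rrn26, orf173 and sdh3 were within 20%, and nad3, orf120b, orf131b, orf132 and orf138c were not. The copies of rrn26 (gene74115 and gene74269) were at 80.8, 60.3 and 240 FPKM for the first and 80.7, 60.3 and 240 FPKM for the second in libraries 1, 2 and 3, and differed by at most 0.0350%. The copies of orf173 differed by at most 0.685% and orf265a and orf265b by at most 1.06%. The low pair orf138b and orf138c (gene74268), both of which overlap rrn26, differed by at most 0.0372% in libraries 1 and 3 and was not listed in library 2. The 3 copies of sdh3 differed by at most 14.0% between any of them, orf120 and orf120b (gene74266) by at most 12.4%, and orf197 and orf197b by at most 18.7%.

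The other 5 pairs, all with a shared name, differed by more. The first copy of nad3, which is followed by rps12, exceeded the second by 1.90, 1.31 and 1.38 times in libraries 1, 2 and 3. The rest were low orfs. The 2 members named orf131b were at 0.631, 0.276 and 0.859 FPKM (gene74218) and at 0.381, 0.983 and 1.03 FPKM (gene74220), so that neither was higher in every library. Those named orf120b were at 0.656, 0.285 and 0.907 FPKM (gene74217) and at 0.0832, 0 and 0.464 FPKM (gene74266). Those named orf138c were at 1.29, 0.205 and 1.05 FPKM (gene74194) and at 0.106, 0 and 0.169 FPKM (gene74268). In both of these names the first member was higher in every library. Those named orf132 were at 0, 0 and 0.166 FPKM (gene74110) and at 0.158, 0 and 0.526 FPKM (gene74139). RSEM, which the authors used, divides reads that match several genes between them, so the values of identical copies carry little information on each place. Summed over copies, nad3 had 43.9 ± 14.8 FPKM and sdh3 10.2 ± 3.06 FPKM (SD, n = 3).

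**Figure D3:**
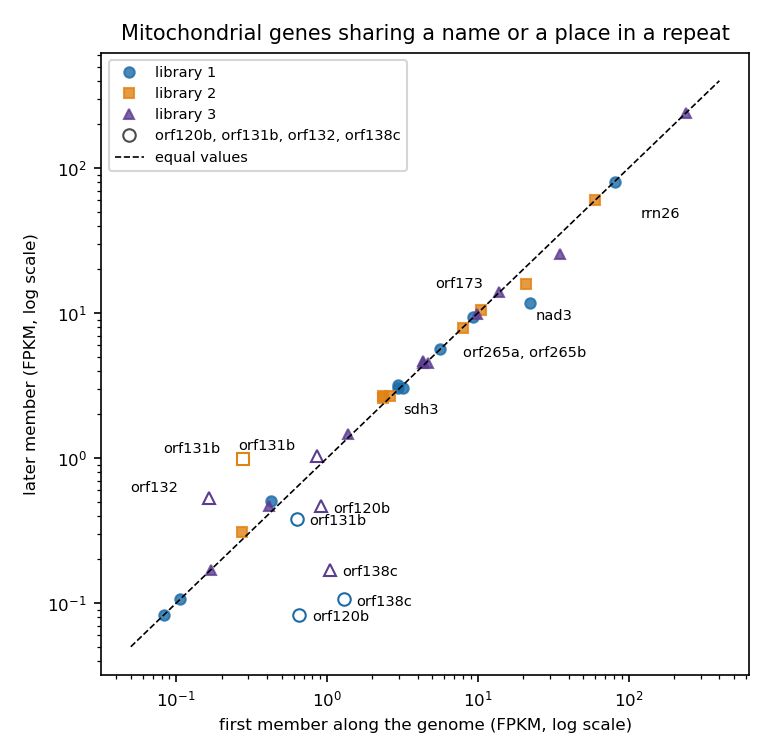
FPKM of the later member against the first (both log axes) for 14 pairs of mitochondrial genes that share a name or a place in a repeat, with libraries as colours and shapes, equal values as a dashed line, open symbols for the 4 shared orf names that differ most, and unlisted values not drawn. Points of rrn26 lie within 0.0350% of equal values, those of nad3 lie below the line and the open symbols lie on either side of it.

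Library 3 was the highest for most mitochondrial genes listed in all 3 libraries, while atp1 was lowest there. Of the 93 members listed in all 3 libraries, 76 (81.7%) were highest in library 3, against 43.9% of all genes. Both named genes (34 of 40) and unnamed orfs (42 of 53) did so. The median ratio of library 3 to library 1 was 1.78 over members, against 1.12 over all genes, and that of library 3 to library 2 was 2.15, against 1.09. At least 2 times the value of both other libraries was reached in library 3 by 37 members (39.8%), against 10.6% of all genes.

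Among members listed in all 3 libraries, atp1 and 4 orfs, orf102a, orf107, orf121c and orf134, were lowest in library 3. A further 5 members were listed in libraries 1 and 2 but not in library 3. Without atp1, the mitochondrial sum was 590, 526 and 1237 FPKM in libraries 1, 2 and 3. The named genes highest in library 1 were atp1, atp9, nad4L, nad9, rps4 and rps19, and no named gene was highest in library 2. Rescaled to TPM, 79 members were highest in library 3, and with libraries scaled by their median ratio over all genes 69 were. The share of all genes highest in library 3 was computed on FPKM only, so these 2 counts have none beside them. With these scalings atp1 in library 3 was 0.825 and 0.689 times its mean in libraries 1 and 2, and all other members together were 2.39 and 2.00 times theirs.

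Some neighbouring orfs were far higher in library 3. The adjacent orf129b, orf151, orf175 and orf152 together had 0.961, 0.821 and 10.5 FPKM in libraries 1, 2 and 3, so that library 3 was 10.9 times library 1 and 12.8 times library 2. At the start of the annotated sequence, orf125a was at 0.224, 0.395 and 3.70 FPKM and its neighbour orf138a was unlisted in library 1 and had 0.291 and 1.82 FPKM in libraries 2 and 3. The widest spread of all, 32.4 times, was that of orf119c, at 0.665, 0.0467 and 1.51 FPKM. It rests on the value in library 2, which lies below 0.151 FPKM, the lowest value of any member listed in a single library.

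Other values also set library 3 apart. It listed the most genes, at 46255, against 44553 in library 1 and 44302 in library 2, and it listed 133 members, against 118 and 111. Plastid genes were highest in library 3 for 39 of 64 listed in all libraries. The plastid gene rbcL was at 3.64, 7.17 and 12.2 FPKM in libraries 1, 2 and 3. The part of these differences in the mitochondrial values was not tested. The libraries are replicates of 1 group, so no labelled condition separates library 3 from the others. What set library 3 apart was not tested.

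**Figure D4:**
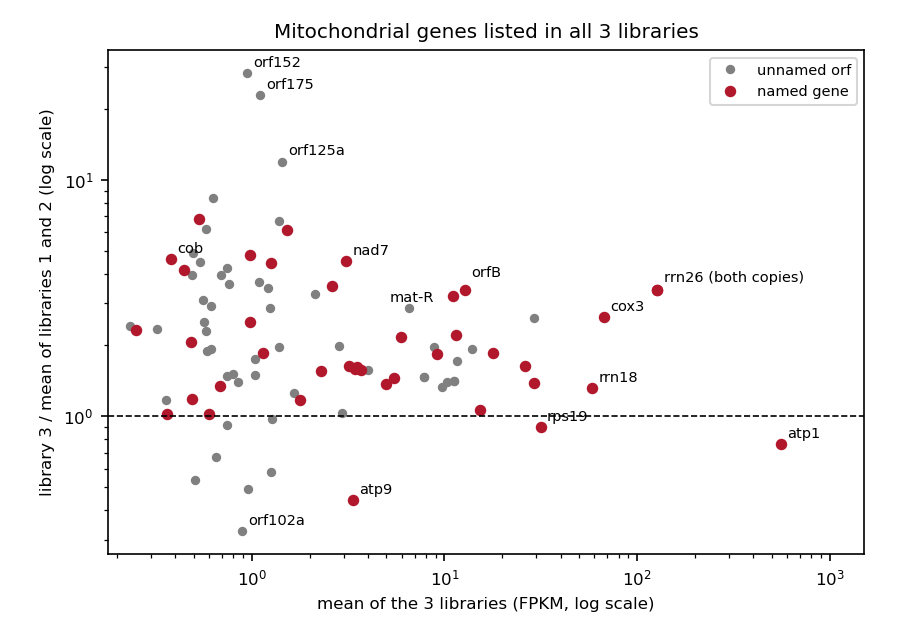
Ratio of library 3 to the mean of libraries 1 and 2 against the mean level in FPKM (both log axes) for the 93 mitochondrial genes listed in all 3 libraries, with named genes in red and a dashed line at equal values. Most points lie above the line, 76 genes being highest in library 3, while atp1 lies below it.

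The spread between libraries was wider for mitochondrial genes than for the tables as a whole. The ratio of the highest to the lowest library had a median of 2.55 over the 93 members, against 1.93 over all genes listed in all 3 libraries, and 42 members (45.2%, against 24.9% of all genes) had a ratio of at least 3. Between libraries 1 and 2 alone this median was 1.49 over the same members. With fewer libraries it can only stay equal or fall, and its value over all genes was not computed for libraries 1 and 2 alone. The order of the members was less alike between libraries than that of all genes. Spearman's rho over the 145 members was 0.814 between libraries 1 and 2, against 0.938 over all 49454 genes. It was 0.740 between libraries 1 and 3, against 0.940, and 0.757 between libraries 2 and 3, against 0.925. These are descriptions across genes, which share library and depth, and members are on the whole lower than other genes.

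Of the few nuclear partners of the respiratory chain that were looked up by name, only alternative oxidase was matched. This enzyme passes electrons from ubiquinone to oxygen without complexes III and IV. Nuclear subunits of the complexes were not looked up. AOX1 (LOC107763364) was at 96.6, 58.6 and 93.7 FPKM and AOX2 (LOC107781761) at 72.2, 22.2 and 131 FPKM in libraries 1, 2 and 3. Both were lowest in library 2. Nuclear transcripts are polyadenylated, so these levels and those of mitochondrial genes are not directly comparable. UCP, ANT and CYTC, also on the list of partners, matched no gene name.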

How the data were processed

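RNA of isolated 2-celled proembryos was measured in 3 libraries. The authors deposited 1 table of FPKM per library. Per the study's methods these values came from RSEM, run on Bowtie 2 alignments to the Ntab-TN90 assembly after read trimming that included Cutadapt. The submitters' processing notes name TopHat2 in place of Bowtie 2. Tool versions are not given in the sources used here. The tables list only genes above 0 FPKM, and depth is unknown, so no intervals were computed. FPKM of short genes depends on the effective length that RSEM assumes.

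Members were all genes located on the mitochondrial genome, joined by identifier. Table starts count from 0 and were converted to count from 1. Names, classes and gene order used the RefSeq gene table of the K326 assembly, in which all 145 members matched by name. Every member with a known name is reported, with the 5 highest orfs and the orfs that overlap named genes. Members and lists were chosen with earlier results of these data known. Genes outside this rule were chosen after their values were seen. No group was compared and no test was made. Relative depth came from genes under 0.3 FPKM. The summaries were tested on simulated data. Alternatives were a pseudocount of 0.1, thresholds, TPM, locus length and leaving out each replicate. Python 3.11.15, numpy 2.4.6, pandas 2.3.3 and matplotlib 3.10.9 were used.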

Additional observations from a re-analysis of the deposited data

How the results depend on the processing

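Leaving out each replicate, the mitochondrial share of the FPKM sum ranged from 0.142% to 0.185%, the number of members listed in all libraries from 98 to 111, the mean rho from 0.740 to 0.814, the ratio of the median of named genes to that of orfs from 5.64 to 9.99, and the median of the highest over the lowest library from 1.49 (without library 3) to 2.25, against 2.55 over all libraries. Leaving out library 3 moved the ratio of named genes to orfs by over 1.5 times, and also the median of the highest over the lowest library. That median can only stay equal or fall when any library is left out. Without library 3 the summed levels of complex III (0.174 FPKM), transport (0.589 FPKM), cytochrome c maturation (1.75 FPKM), mat-R (6.31 FPKM), rRNA (194 FPKM) and complex IV (48.9 FPKM) were also lower by over 1.5 times. The share was 0.0995% without atp1 and 0.129% without the rRNA genes. It was 0.00944% over genes with a locus of their own, and 0.00177% over the same genes with FPKM multiplied by locus length. This setting keeps only 37 of the 145 members and leaves out atp1, rrn26, rrn18, cox3, rps19 and rps3, among others. Of the 145 members above 0 FPKM in at least 1 library, 93 were listed in all 3, 84 had at least 0.1 FPKM in all 3 and 39 at least 1 FPKM. The median level was 0.662 FPKM, and 1.28 FPKM among members listed in all 3 libraries. The mean rho was 0.770, and 0.821 among those members, while Pearson's r was 0.944 for log2(FPKM + 1) and 0.862 for log2(FPKM + 0.1). The ratio of named genes to orfs was 6.10, and 3.28 among members listed in all 3 libraries, where 53 of 104 orfs are left by construction. The difference between neighbours was 1.58 with a pseudocount of 0.1 (1.98 over all pairs) and 0.84 among members listed in all 3 libraries (1.27 over all pairs). Of the 39 members with at least 1 FPKM in all libraries, 33 were highest in library 3, and the share over all genes was not computed at this threshold. The cause of the other shifts was not tested. The settings without rRNA genes and with genes of their own locus but no length weighting, the scalings of library 3 and its threshold were chosen after seeing the data. No paired analysis was possible because there is only 1 group. Absolute depth is unknown, so an unlisted gene may be absent or too low to be seen.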
